A study of Caenorhabditis elegans with 71 samples.

Results

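This account describes 8 protease genes of Caenorhabditis elegans, chosen by name: the cathepsin B-like genes cpr-1, cpr-3, cpr-4, cpr-5 and cpr-6, and the aspartyl protease genes asp-1, asp-3 and asp-4. They are 8 of the 19120 named genes of the deposited table. Poly(A) RNA of whole larvae was sequenced along 4 time courses, with 1 library at each time. Each population was started from larvae that had hatched without food and were arrested in the first larval stage (L1). Hours are counted from their placing on food, NGM plates with OP50 E. coli.

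The lin-4(e912) mutant, a knockout of the microRNA gene lin-4, was grown at 20C and sampled every 2 h until 48 h (25 libraries, called DH4). Wild-type N2 larvae were kept at 25C and sampled every 1.5 h until 28.5 h (20 libraries, DH3). Wild-type N2 larvae at 20C were sampled every 2 h until 38 h (20 libraries, DH2). An independent wild-type population at 20C covered the last larval stage, L4, from 38 to 48 h (6 libraries, DH5). Genotype, temperature and population cannot be told apart, since the mutant and growth at 25C were each carried by 1 population, and no library repeats a time point within a population.

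Cathepsins are made as inactive precursors that become active proteases in acidic compartments. The cathepsin B-like enzymes cut with a cysteine in the active site, and the cathepsin D-like enzymes with a pair of aspartates. In the worm, such enzymes act in the lumen of the intestine, where they digest bacteria, and in lysosomes, where they degrade the cell's own proteins. Larvae pass through 4 stages, each closed by a molt during which feeding stops and the cuticle is replaced.

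asp-1, an aspartyl protease known from intestinal cells, had the highest level of the 8 genes, with a mean of 1680 RPKM over the 71 libraries (reads per kilobase of gene, scaled by library depth) and rank 68 of 19120. The lysosomal cathepsin D-like gene asp-3 followed at 690 RPKM, then cpr-1 at 641, cpr-5 at 589, cpr-4 at 508, cpr-6 at 311 and the second lysosomal gene asp-4 at 163 RPKM. cpr-3 stood far below the rest at 11.4 RPKM, rank 7291. Neighbours from asp-3 to cpr-4 in this order had overlapping ranges, from 46.0 to 1707 RPKM for cpr-1 and from 526.5 to 911 RPKM for asp-3. The 8 genes together took between 0.2998 and 0.977% of a library's summed RPKM, lowest in the arrested wild-type larvae at 20C and highest at 44 h in DH5.

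The word intestinal could not be checked in RNA of whole animals. In bulk samples, a change in the share of intestinal RNA and a change of a gene within the intestine cannot be told apart. Genes that define the intestine were present in every library: the gut actin act-5 ranged from 195 to 1177 RPKM, the gut intermediate filament gene ifb-2 from 135 to 672, the vacuolar ATPase subunit gene vha-6 from 92.5 to 372, the esterase gene ges-1 from 7.43 to 50.9 and the transcription factor gene elt-2 from 12.0 to 27.5. cpr-1, cpr-3, cpr-4, cpr-5 and asp-1 lie on chromosome V and cpr-6, asp-3 and asp-4 on chromosome X of the WBcel235 annotation. There cpr-5 lies next to 2 further cathepsin B-like genes, cpr-8 and W07B8.4, and asp-1 next to asp-15 and asp-16. The means of these neighbours were 15.3 RPKM for cpr-8, 1.01 for W07B8.4, 0.024 for asp-15 and 0.11 for asp-16. Sequences were not compared, so whether reads were shared between neighbours was not tested. asp-4 overlaps R12H7.4 and cpr-4 a small RNA gene, each on the opposite strand, and no source used here says whether reads were counted by strand.

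Estimated depth had a median of 29000000 reads per library in DH4, 23700000 in DH3, 19800000 in DH2 and 30400000 in DH5, rounded to 3 digits, and the fewest estimated reads behind any value of the 8 genes were about 98, for cpr-3 in DH2. The libraries of DH3 at 27 and 28.5 h were the closest of 67 pairs of neighbours, with an SD of log2 ratios of 0.102 against a median of 0.355, and the 8 genes were nearly equal there. The calls of DH3 are therefore also given without the later one. lin-14 and lin-28, known targets of lin-4, had medians from 12 h on of 79.2 and 42.5 RPKM in 19 libraries of DH4, up to 48 h. The medians were 44.6 and 12.1 RPKM in 14 libraries of DH2, up to 38 h, and 26.9 and 9.59 RPKM in DH5. Ranges of lin-14 overlapped, from 37.1 to 163 RPKM in DH4 and from 26.4 to 72.9 in DH2. Those of lin-28 overlapped as well, from 21.0 to 73.5 RPKM in DH4 and from 6.90 to 47.5 in DH2. The transcript of lin-4 itself is not analysed here.

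Feeding was compared by setting larvae after 6 h on food (4.5 h at 25C) against the arrested larvae of the same population at 0 h. No library holds larvae kept without food to these times, so food, hours elapsed and exit from arrest cannot be told apart. cpr-1, cpr-4 and cpr-5 rose, by the rule used throughout: limma on log2(RPKM + 1), a Benjamini-Hochberg adjusted p under 0.05 over all genes tested, and a size of 1 log2 unit or more. Of 13370 genes tested, 19% were called and 8.86% were called higher in fed larvae; of the 8 members 3 were called, all 3 higher. After median-ratio rescaling of the libraries the share of called genes that were higher was 59.9%, against 46.6% without it.

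cpr-5, a cathepsin B-like gene, had 425 RPKM at 6 h in DH4, 262 RPKM at 4.5 h in DH3 and 665 RPKM at 6 h in DH2, against 43.6, 24.2 and 9.42 RPKM at 0 h in the same order. Every fed library stood above every arrested one, by 9.73-fold in DH4, 10.9-fold in DH3 and 70.6-fold in DH2. The mean difference was 4.21 ± 0.56 log2 (SE, 3 pairs, limma adjusted p = 0.00499). Most of it was there at the first fed time, when cpr-5 already had 353 RPKM in DH4, 251 in DH3 and 314 in DH2.

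cpr-1, a cysteine protease gene known from the gut, had 579 RPKM in DH4, 832 RPKM in DH3 and 1242 RPKM in DH2 in the fed larvae, against 138, 101 and 46.0 RPKM in the arrested larvae. The 2 sets did not overlap, and the mean difference was 3.27 ± 0.49 log2 (SE, limma adjusted p = 0.00681). The fold was 4.21 in DH4, 8.22 in DH3 and 27.0 in DH2, and the larger fold went with the lower 0 h value. About 819 reads stood behind the lowest cpr-1 value.

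cpr-4 rose by a smaller mean difference. It had 398 RPKM in DH4, 694 RPKM in DH3 and 724 RPKM in DH2 in fed larvae, against 282, 363 and 133 RPKM in arrested larvae, and the mean difference was 1.29 ± 0.38 log2 (SE, limma adjusted p = 0.0436). All 3 pairs moved up, by 1.41-fold, 1.91-fold and 5.45-fold. The call rested on DH2 in size, since without that population the difference was 0.71 ± 0.18 log2, and it was lost with a pseudocount of 0.1 (adjusted p = 0.0679), without a filter on low values (0.0735), without DH3 (0.0590) and with either earlier fed time.

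cpr-6 and the lysosomal gene asp-4 took another course in the first hours. At 0, 2, 4 and 6 h, cpr-6 had 120, 32.8, 30.7 and 50.9 RPKM in DH4 and 115, 75.8, 84.0 and 123 RPKM in DH2, and at 0, 1.5, 3 and 4.5 h it had 68.7, 18.8, 21.4 and 60.2 RPKM in DH3. It was lowest at 2 h in DH2, at 4 h in DH4 and at 1.5 h in DH3, and higher again at the last of these times in each. With 2 h (1.5 h at 25C) as the fed time, cpr-6 fell by 1.41 on the log2 scale (SE 0.29, limma adjusted p = 0.0255), while at 6 h the difference of -0.43 ± 0.28 did not pass (adjusted p = 0.255).

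asp-4 dipped at the same times, with 246, 68.1, 61.1 and 108 RPKM at 0, 2, 4 and 6 h in DH4, 262, 123, 125 and 182 RPKM in DH2, and 176, 53.2, 49.7 and 115 RPKM at 0, 1.5, 3 and 4.5 h in DH3. With the earliest fed time asp-4 fell by 1.54 on the log2 scale (SE 0.20, limma adjusted p = 0.00886). At 6 h the difference was -0.77 ± 0.19 log2, with an adjusted p of 0.0258 but a size under the limit of 1. With 4 h (3 h at 25C) as the fed time both fell as well, by 1.34 for cpr-6 and by 1.62 for asp-4.

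cpr-3 passed the rule only at the earliest of the 3 fed times. Its values at 0, 2, 4 and 6 h were 12.9, 29.5, 24.8 and 20.1 RPKM in DH4 and 8.32, 25.4, 17.9 and 14.1 RPKM in DH2, with the highest value at 2 h in both. In DH3 it had 8.86, 17.6, 15.1 and 17.5 RPKM at 0, 1.5, 3 and 4.5 h, and 17.8 and 16.4 RPKM at 6 and 7.5 h, so there it stayed up and was highest at 6 h. At 2 h (1.5 h at 25C) the gene rose by 1.18 ± 0.18 log2 (limma adjusted p = 0.0117), and at 6 h the difference was 0.74 ± 0.15 log2 (adjusted p = 0.0155), under the size limit. At the earliest fed time 5 members were called in all, beside 14.3% of genes: cpr-1, cpr-3 and cpr-5 higher and cpr-6 and asp-4 lower.

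asp-1 and asp-3 did not pass at any of the 3 fed times. asp-1 had 1518 RPKM in DH4, 1728 in DH3 and 2254 in DH2 at 6 h (4.5 h at 25C), against 1232, 1915 and 808 RPKM at 0 h, so it was higher in fed larvae of DH4 and DH2 and lower in those of DH3 (mean 0.54 ± 0.32 log2, limma adjusted p = 0.223). asp-3 stayed between 533 and 735 RPKM through the first 4 libraries of all 3 series.

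**Figure D1:**
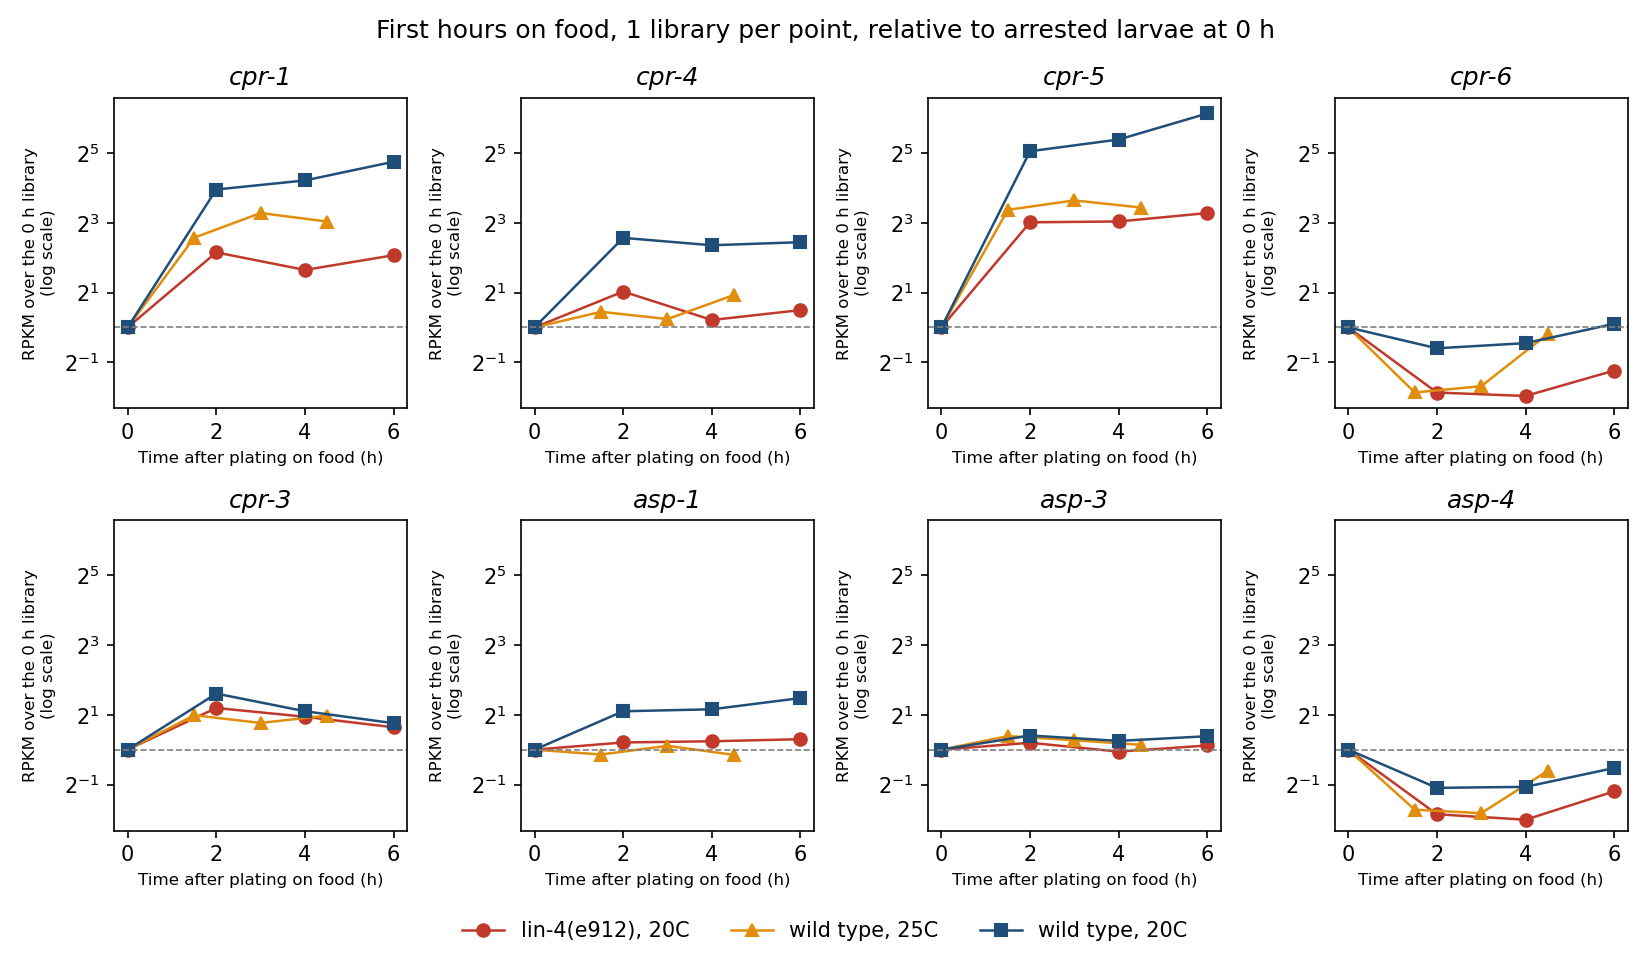
RPKM of each gene in the first 4 libraries of 3 populations, divided by the 0 h library of the same population (log scale, 1 library per point, dashed line at 1) against hours on food. cpr-5 and cpr-1 climb in all 3 populations, cpr-6 and asp-4 dip before 6 h, and asp-3 stays between 533 and 735 RPKM.

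The other proteases and the intestine did not all follow the cpr genes in fed larvae at 6 h (4.5 h at 25C). Of 17 intestine markers tested, 6 were called higher and 0 lower, led by the metallothionein gene mtl-2 (4.79 log2), the peptide transporter gene pept-1 (2.44) and the acid phosphatase gene pho-1 (2.37), and act-5 rose by 1.92 log2. Their median difference was 0.43 log2, beside -0.15 over all genes tested. The summed level of the intestine list was 2596 to 3048 RPKM in 3 fed libraries, against 1382 to 1769 RPKM in arrested ones. This sum, in which abundant genes such as act-5 weigh most, moved in the same direction as cpr-1, cpr-4 and cpr-5. The markers did not all do so. Beside the 6 called higher, ges-1 was at -0.79 log2, ifb-2 at -0.17 and elt-2 at -0.092, and these 3 were not called. What part the share of intestinal RNA has in the rise of cpr-1, cpr-4 and cpr-5 was not tested.

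Among 12 tested genes of 14 other cysteine cathepsins, 1 was called higher and 4 lower, with a median of -0.42 log2. cpr-9 (F57F5.1 in the table) rose by 1.85 log2, while cpr-2 was at -3.32, the cathepsin Z-like gene cpz-1 at -2.34 and W07B8.4 at -2.003. Of 7 tested among 13 other aspartyl proteases asp-2 alone was called (1.096 log2, higher). Of the 2 cystatin genes, cpi-1 and cpi-2, which encode inhibitors of cysteine cathepsins, 0 were called.

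Of 15 lysosomal genes, 2 were called higher, the alpha-galactosidase gene gana-1 (1.58 log2) and the alpha-mannosidase gene aman-1 (1.19), and 5 lower, led by the lipase genes lipl-3 (-3.34) and lipl-4 (-2.79) and the scavenger receptor gene scav-3 (-1.23). Of 9 regulators of intestine and lysosome 0 were called. After rescaling of the libraries by their median ratio, which moved the median of all genes by 0.15 log2, the lower counts were 3 for the cysteine cathepsins and 4 for the lysosomal genes and the higher counts were as before. Of the lists below, rescaling gave 3 molting factors, 2 germline genes and 1 epidermis gene called higher and 0 muscle genes lower.

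Lists of other tissues had few calls at this time, but the summed levels of several moved. The body wall muscle list had 0 genes called higher and 1 lower of 13, epidermis 0 of 9, pharynx 0 of 9, neurons 0 of 13, germline 1 of 12, higher, and molting factors 1 of 13, higher. The summed level of the muscle list was 5491 to 6306 RPKM in fed larvae, against 7810 to 8429 RPKM in arrested larvae. The neuron list summed to 1281 to 1490 RPKM in fed larvae, against 2053 to 2386 RPKM in arrested larvae, and the pharynx list to 810 to 1042 RPKM, against 1300.2 to 1534 RPKM. These 3 lists were lower in every fed library, with median differences of -0.10 log2 for muscle (0.062 after rescaling), -0.46 for neurons and -0.68 for pharynx. Epidermis was higher in every fed library, at 410 to 450 RPKM in fed larvae, against 342 to 357 RPKM in arrested larvae. Their part in the members' differences was not tested.

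Cycling with the molts was tested in 17 libraries of each long series, which leave out the times before 6 h (4.5 h at 25C) and those of DH4 after 38 h. A cosine and a sine were fitted beside a smooth course of time, at the period that explained most variance over all genes: 14 h in DH4, 7.75 h in DH3 and 11.25 h in DH2. Each fit holds 1 period for its whole series, so cycles of unequal length within a series are not modelled. The period was picked on these same libraries, and the p-values and SEs take it as known. The measure is the fitted peak-to-trough range in log2 units. Called as cycling were 13.5% of genes tested in DH4, 10.9% in DH3 and 13.7% in DH2, beside 1 of 8 members in DH4, 3 of 8 in DH3 and 2 of 8 in DH2. Times of 1 population are not stated to be separate cultures, so these p-values measure the spread of libraries around a smooth curve.

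cpr-6 had the largest fitted range of the 8 genes in each series. In DH4 its maxima were 815, 619 and 588 RPKM at 18, 32 and 42 h, the second a broad top that began at 28 h, and 107 and 204 RPKM were its minima at 22 and 36 h. In DH3 maxima of 828, 507 and 458 RPKM at 10.5, 19.5 and 25.5 h enclosed minima of 45.4 and 129 RPKM at 15 and 22.5 h. In DH2 maxima of 823, 536 and 372 RPKM at 14, 24 and 36 h enclosed minima of 107 and 168 RPKM at 20 and 30 h. Within each of the 3 series the successive maxima were lower each time, with the highest in the first cycle. The separate wild-type population DH5 reached 828.7 RPKM at 48 h, its last time.

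The fitted range of cpr-6 was 2.45 ± 0.27 log2 in DH4 (SE, 17 libraries, limma adjusted p = 0.000137), 1.98 ± 0.66 in DH3 (adjusted p = 0.0905, not called) and 1.96 ± 0.35 in DH2 (adjusted p = 0.00340). In DH3 the call turned on the 4.5 h library: without it the range was 2.55 ± 0.60 log2 with an adjusted p of 0.0221. At the 3 series' own time scales, cpr-6 peaked close to mlt-10, an epidermal gene required for molting: 0.43 ± 0.39 h before it in DH4, 0.40 ± 0.54 h before it in DH3 and 0.37 ± 0.48 h before it in DH2 (SE). These SEs take the peaks of both genes as independent, although both were fitted to the same libraries. mlt-10 itself did not pass in DH3 (limma adjusted p = 0.0614). Over the 65 libraries of DH4, DH3 and DH2, centred on each population, cpr-6 and mlt-10 had a Pearson r of 0.90, given as a description, since the libraries are successive times of 3 populations.

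**Figure D2:**
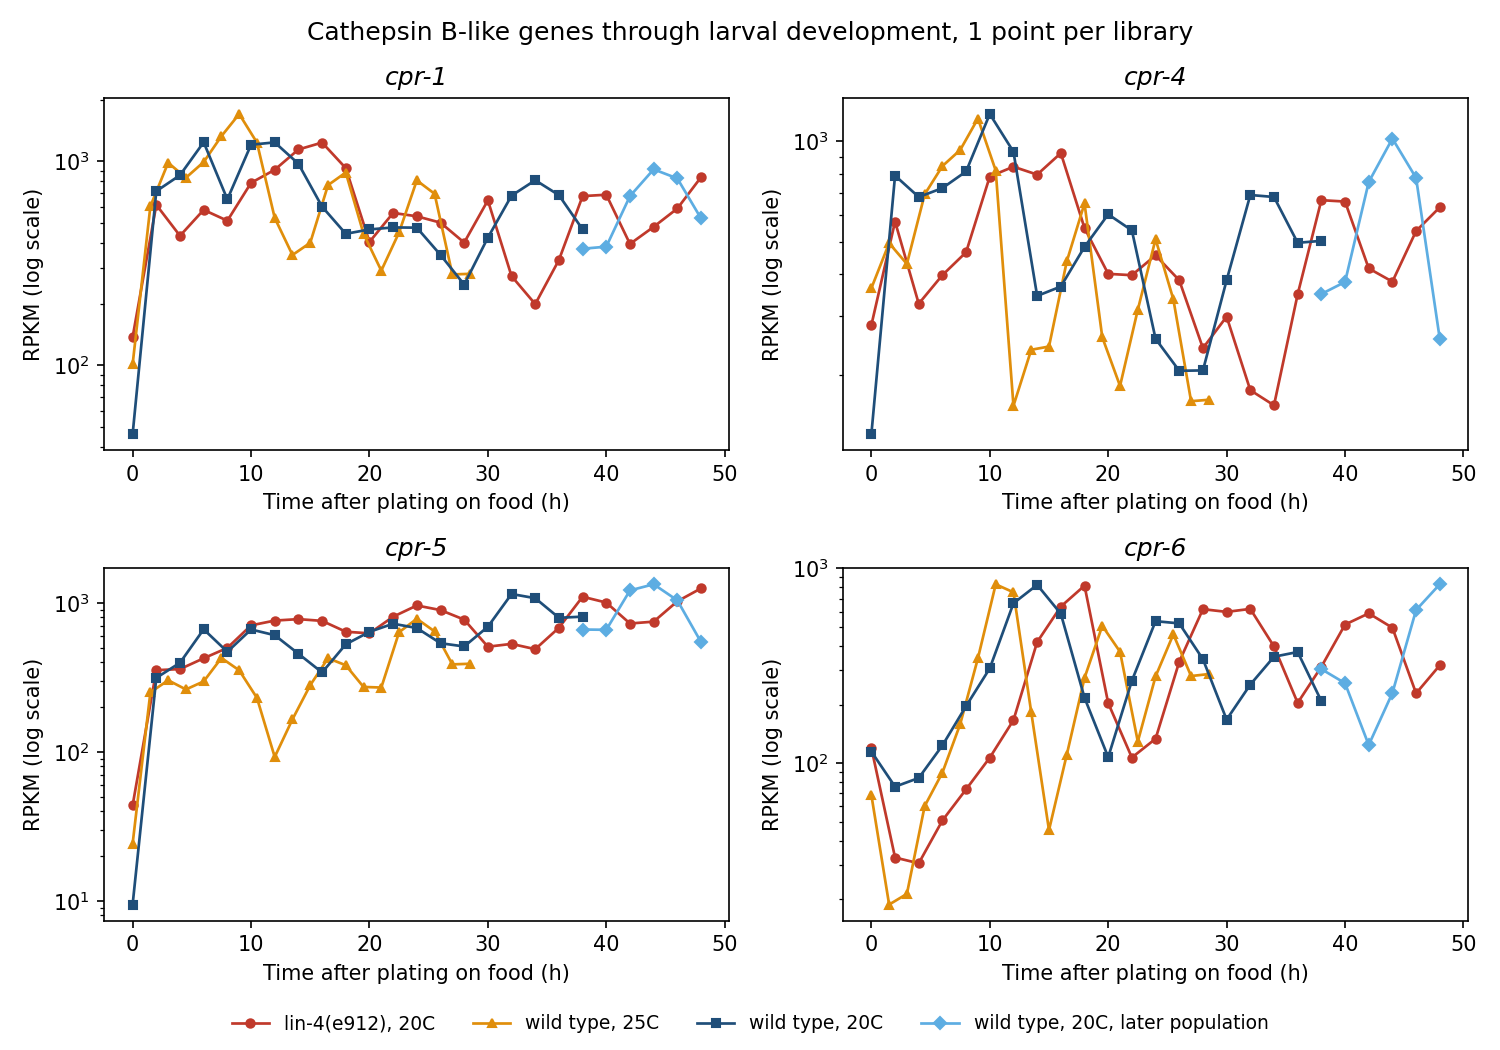
RPKM (log scale) of cpr-1, cpr-4, cpr-5 and cpr-6 against hours after plating on food, 1 point per library, in lin-4(e912) at 20C, wild type at 25C and both wild-type populations at 20C. cpr-6 swings between 45.4 and 828 RPKM at 25C after 4.5 h, and the peaks of cpr-1, cpr-4 and cpr-5 come before those of cpr-6.

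cpr-4 peaked earlier in the cycle. In DH2 it had maxima of 1206, 605 and 691 RPKM at 10, 20 and 32 h, with 345 and 206 RPKM at 14 and 26 h between them. In DH3 maxima of 1169, 652 and 509 RPKM at 9, 18 and 24 h stood against 162 and 185 RPKM at 12 and 21 h. Its minima in both series came at the time of a cpr-6 maximum or 1 library later.

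The range of cpr-4 was 1.68 ± 0.28 log2 in DH3 (limma adjusted p = 0.00576) and 1.43 ± 0.13 log2 in DH2 (adjusted p = 0.000226), both called. The call in DH2 was lost with a linear in place of a spline course of time (adjusted p = 0.0555) and with all 20 time points (0.273). In DH4 it was 0.87 ± 0.19 log2, with an adjusted p of 0.00830 but under the size limit. Its fitted peak preceded that of mlt-10 by 4.01 ± 0.61 h in DH4, 2.27 ± 0.42 h in DH3 and 4.13 ± 0.42 h in DH2 (SE).

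cpr-1 and cpr-5 were called as cycling at 25C. In DH3 cpr-1 had maxima of 1707, 882 and 807 RPKM at 9, 18 and 24 h and minima of 348 and 291 RPKM at 13.5 and 21 h, a range of 1.62 ± 0.19 log2 (limma adjusted p = 0.00284). In the same libraries cpr-5 had 427, 425 and 782 RPKM at 7.5, 16.5 and 24 h, with 92.3 and 270 RPKM at 12 and 21 h between them, a range of 1.45 ± 0.12 log2 (adjusted p = 0.000821). At 20C both passed the adjusted p with ranges under 1: cpr-1 had 0.96 ± 0.27 log2 in DH4 (adjusted p = 0.0315) and 0.90 ± 0.22 in DH2 (0.0172), and cpr-5 had 0.77 ± 0.11 in DH4 (0.000547) and 0.71 ± 0.14 in DH2 (0.00521).

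cpr-1 lay so near the size limit at 20C that single libraries moved it over. Leaving out 1 of 7 libraries of DH4 (6, 10, 12, 14, 18, 22 or 28 h) gave ranges from 1.01 to 1.11 log2, and leaving out the 6 h library of DH2 gave 1.02 log2. With a period 1 h shorter it was called in both, at 1.05 in DH4 and 1.07 in DH2. The 3 calls in DH3 held without the library at 28.5 h, with ranges of 1.72 log2 for cpr-1, 1.84 for cpr-4 and 1.49 for cpr-5. They depended on the period: with 1 h more only cpr-5 was called, and with 1 h less, or with all 20 time points, 0 members and at most 10 genes of all were called.

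Peaks of cpr-1 came 2.43 ± 0.69 h before those of mlt-10 in DH4, 2.08 ± 0.39 h in DH3 and 2.21 ± 0.59 h in DH2 (SE). Those of cpr-5 came 4.86 ± 0.47 h before in DH4, 2.83 ± 0.38 h in DH3 and 3.48 ± 0.54 h in DH2. nhr-23, which encodes a nuclear receptor required for molting, peaked 3.97 h before mlt-10 in DH4, 2.62 h in DH3 and 3.16 h in DH2, among the times of cpr-1, cpr-4 and cpr-5. Differences between these peak times were not tested.

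cpr-3 ran opposite to cpr-6. In DH2 it had minima of 5.42 and 7.06 RPKM at 16 and 26 h and maxima of 13.6 and 14.8 RPKM at 20 and 30 h, the times at which cpr-6 was lowest. Its range was 0.71 ± 0.12 log2 in DH4, 0.64 ± 0.15 in DH3 and 0.80 ± 0.15 in DH2, with limma adjusted p-values of 0.00147, 0.0232 and 0.00361 and each under the size limit. Its peak lay 49.6% of a cycle from that of mlt-10 in DH4, 48.1% in DH3 and -45.6% in DH2, close to the far side of the cycle. The Pearson r of cpr-3 and cpr-6 over the 65 libraries was -0.84, again a description.

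The aspartyl genes varied least. asp-4 had ranges of 0.58 ± 0.09 log2 in DH4 (limma adjusted p = 0.00104), 0.51 ± 0.20 in DH3 (0.150) and 0.44 ± 0.09 in DH2 (0.00839), and peaked 2.92 h before mlt-10 in DH4, 2.48 h in DH3 and 2.76 h in DH2. asp-1 had ranges between 0.056 and 0.24 log2 that did not pass in any series. asp-3 had 0.20 ± 0.06 log2 in DH4 (adjusted p = 0.0426) and 0.072 and 0.12 log2 in DH3 and DH2. From 6 h on, asp-3 stayed within 634 to 818 RPKM in DH4 up to 38 h and within 538 to 827 RPKM in DH2.

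**Figure D3:**
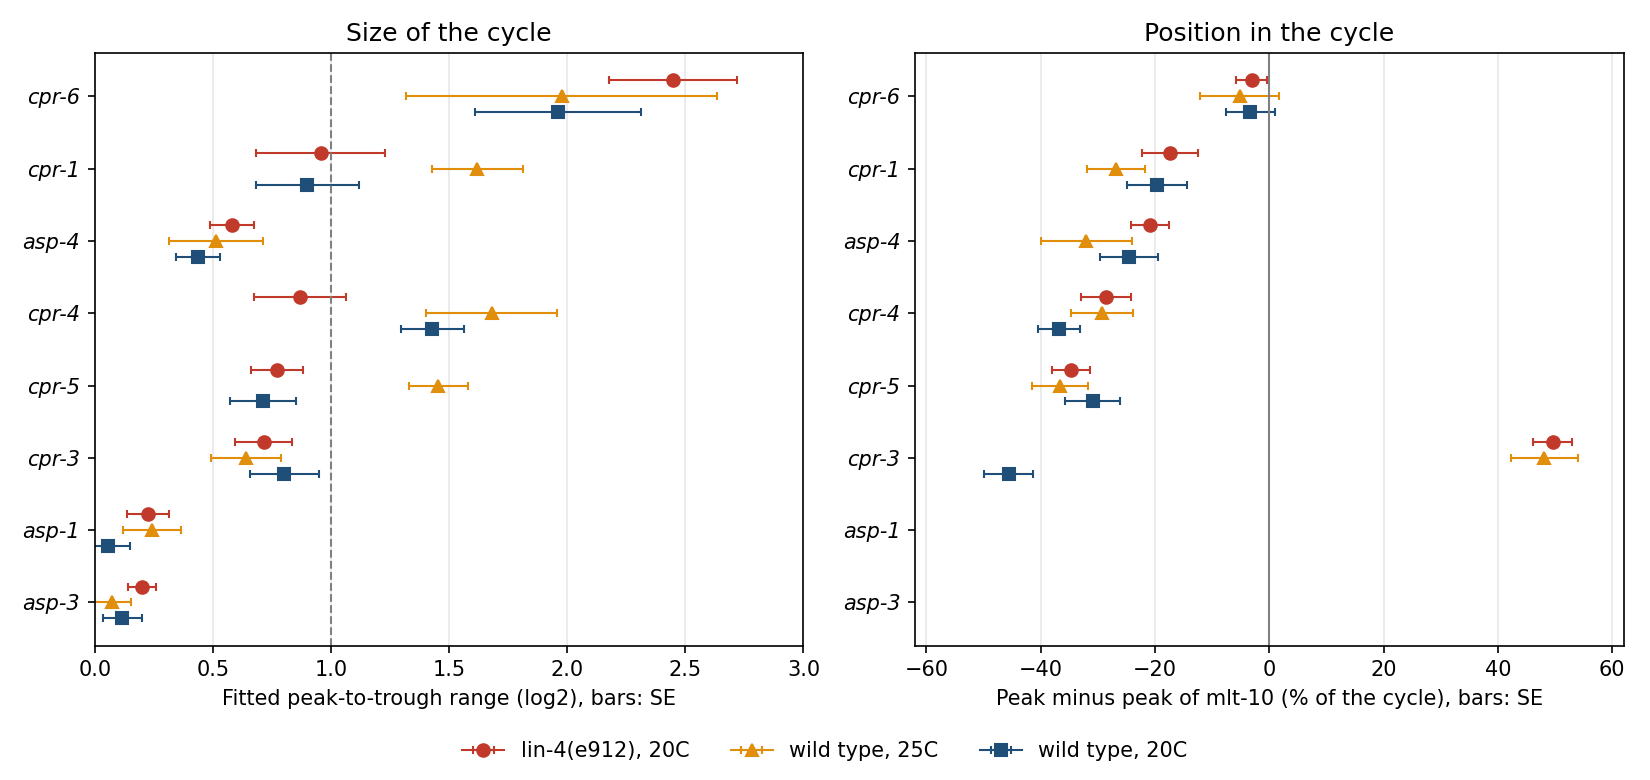
Fitted peak-to-trough range (left, log2, dashed line at the size limit of 1) and time of the fitted peak relative to mlt-10 (right, percent of a cycle that closes on itself, so that far left and far right are near each other) for lin-4(e912) at 20C, wild type at 25C and wild type at 20C. Points are estimates from 17 libraries and bars are SE, which on the right take the peaks of both genes as independent. cpr-6 lies near 0, cpr-1, cpr-4, cpr-5 and asp-4 lie before it and cpr-3 lies at the far side; asp-1 and asp-3, with ranges of at most 0.24 log2, have no position drawn.

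The later wild-type population was described by its values, because 6 libraries span less than a cycle. At 38, 40, 42, 44, 46 and 48 h, cpr-4 had 349, 379, 755, 1019, 777 and 256 RPKM, cresting at 44 h. cpr-1 crested there too, with 373, 914 and 525.6 RPKM at 38, 44 and 48 h, and so did cpr-5, with 662.5, 1334 and 546 RPKM. cpr-6 had 304, 257, 124, 229, 611 and 828.7 RPKM at the same times, lowest at 42 h and highest at 48 h, while cpr-3 was highest at 42 h with 11.5 RPKM and lowest at 48 h with 4.95 RPKM. The order of cpr-4, cpr-1 and cpr-5 before cpr-6 and the opposite course of cpr-3 were thus seen in the fourth population as well.

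Other cysteine cathepsins cycled in part. Of those tested, 2 of 10 were called in DH4, 2 of 10 in DH3 and 4 of 11 in DH2. The cathepsin L-like gene cpl-1 had a range of 1.80 ± 0.22 log2 in DH4 and 1.62 ± 0.29 in DH2, and in DH3 1.84 ± 0.52 with an adjusted p of 0.0510. cpz-1 had 3.21 ± 0.28 log2 in DH4 and 2.43 ± 0.47 in DH2, and cpr-9 had 1.39 ± 0.20 in DH3 and 1.12 ± 0.19 in DH2. Y65B4A.2 was called in DH3 (1.58 log2) and DH2 (1.11 log2).

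Of 6 tested aspartyl proteases 0 were called in any series, and of the cystatins cpi-1 was called in DH3 (1.305 ± 0.241 log2). Among intestine markers 0 of 17 were called in DH4, 1 in DH3 (ifd-2, an intermediate filament gene, 1.46 log2) and 1 in DH2 (ifc-2, of the same family, 1.09 log2), with median ranges of 0.39, 0.51 and 0.42 log2. Lysosomal genes gave 1 of 13 in DH4 (gana-1, 1.28 log2), 1 of 14 in DH3 (gana-1, 1.06 log2) and 0 of 14 in DH2, and the regulators gave 0 of 9 in each. Over all genes tested the median range was 0.32, 0.31 and 0.30 log2 in DH4, DH3 and DH2, and over the 8 members 0.74, 1.05 and 0.76. Molting factors gave 14 of 15 in DH4, 7 of 15 in DH3 and 14 of 15 in DH2.

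Pharynx genes were called in 8 of 10 in DH4, 8 of 10 in DH3 and 7 of 10 in DH2, epidermis genes in 4, 3 and 3 of 11, and body wall muscle, neurons and germline in 0 genes of each series. The summed level of the intestine list varied within 2052 to 2833 RPKM in DH4, 2050 to 3128 RPKM in DH3 and 2071 to 3214 RPKM in DH2 over the same libraries. cpr-5 moved with act-5 over the 65 libraries (Pearson r 0.89), cpr-1 and cpr-4 less so (0.54 and 0.25), and cpr-6 hardly (0.077). Unlike the 17 libraries of each fit, these 65 include the arrested larvae and the first hours on food. Both act-5 and cpr-5 were lowest at 0 h in each long series, so this r does not describe the cycle alone. The part of gut content in any range was not tested.

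Beside the cycle, the linear change over the same libraries was tested. cpr-1 fell in all 3 series, by 1.26 on the log2 scale in DH4 (SE 0.38, limma adjusted p = 0.00917), by 1.78 in DH3 (SE 0.27, 5.52e-05) and by 1.25 in DH2 (SE 0.41, 0.0157). cpr-4 fell by 1.29 in DH4 (SE 0.42, adjusted p = 0.0143) and by 2.05 in DH3 (SE 0.42, 0.000794). cpr-6 rose by 1.95 ± 0.37 log2 in DH4 (0.000287) and cpr-5 by 1.19 ± 0.38 log2 in DH3 (0.0153). These are 1 member higher and 2 lower in DH4, the same counts in DH3, and 1 lower in DH2, beside 9.2% and 15.4% of all genes in DH4, 11.1% and 16.7% in DH3, and 16.4% lower in DH2. The window of DH4 opens at 6 h with the lowest cpr-6 value in it, 50.9 RPKM. Without that library the rise of cpr-6 was 1.38 log2 and still called, although its successive maxima in DH4 were lower each time.

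The other changes did not pass the rule. They lay between -0.71 and 0.33 log2 in DH4, between -0.68 and 0.80 in DH3 and between -0.68 and 0.87 in DH2. Single libraries decided some of them in DH2: without 6 h, cpr-1 was at -0.84 and cpr-6 passed at -1.01, and cpr-5 passed at 1.12, while without 38 h cpr-4 passed at -1.03. After rescaling by median ratios, which moved the median of all genes by 0.18 log2 in DH2, 0.21 in DH3 and 0.33 in DH4, cpr-1 and cpr-4 in DH4 were at -0.90 and -0.93 and no longer called, and cpr-5 passed in DH2 at 1.08. The same rescaling gave shares of called genes that were higher of 58.2% in DH4, 50.5% in DH3 and 48.2% in DH2, against 37.4, 40.1 and 36.5% without it. With all time points, which adds the first hours in each series and in DH4 also 40 to 48 h, cpr-1 was not called in any series (-0.036, -0.54 and 0.030 log2 in DH4, DH3 and DH2) and cpr-4 was at -0.24 in DH4. The same setting gained calls: cpr-5 at 1.79 log2 in DH4 (adjusted p = 0.00186) and 2.58 in DH2 (0.0122), cpr-6 at 2.68 in DH3 (0.0205) and cpr-3 at -1.26 in DH4 (9.61e-05). The rise of cpr-5 in DH3 had an adjusted p of 0.0692 with a period 1 h shorter. Without the library at 28.5 h the 3 calls of DH3 held, at -1.87 for cpr-1, -2.15 for cpr-4 and 1.07 for cpr-5.

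The other proteases were tested for the same linear change. Among 10 cysteine cathepsins tested in DH4, cpz-1 (2.42 log2) and cpl-1 (1.31) rose and 0 fell. In DH3 cpr-8 rose by 1.59 log2 and cpr-9 fell by 1.71 among 10, and in DH2 cpr-8 rose by 1.24 and cpr-2 fell by 1.52 among 11. Medians of this list were -0.026, 0.28 and -0.37 log2 in DH4, DH3 and DH2, beside -0.24, -0.14 and -0.093 over all genes.

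Among 6 other aspartyl proteases asp-17 rose in DH4 (2.08 log2), DH3 (1.29) and DH2 (2.07), asp-13 rose in DH3 (1.50), and asp-8 fell by 1.21 in DH4 and fell by 2.46 in DH3. After rescaling asp-8 was not called in DH4, where 2 genes of this list were then higher and 0 lower. The cystatin gene cpi-1 rose in all 3 series, by 1.87 log2 in DH4, 1.94 in DH3 and 1.72 in DH2. Of the lysosomal genes 2 rose and 1 fell in DH4, 1 rose and 3 fell in DH3, and 1 rose and 4 fell in DH2, with aman-1 higher in each (by 1.17 to 1.63 log2). After rescaling the lysosomal counts were 2 higher and 0 lower in DH4, 1 and 2 in DH3 and 1 and 3 in DH2.

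Tissue lists moved over the same libraries. Of 12 germline genes 10 rose in DH4, 11 in DH3 and 11 in DH2, with medians of 1.93, 2.94 and 2.68 log2, and 0 fell. Of 13 neuron genes 9 fell in DH4, 10 in DH3 and 8 in DH2, with medians of -1.13, -1.29 and -1.09 log2, and 0 rose; after rescaling the counts were 5, 9 and 5. Molting factors rose in 11 of 15 in DH4, 4 in DH3 and 2 in DH2, and 1 fell in each of DH3 and DH2.

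Of 17 intestine markers 0 were called in DH4, 1 rose and 1 fell in DH3, and 1 fell in DH2, with medians of -0.016, 0.11 and 0.13 log2. Of 13 muscle genes 2 rose in DH4, 1 in DH3 and 5 in DH2. Pharynx had 2 higher and 3 lower of 10 in DH4, the same in DH3, and 1 higher and 2 lower in DH2, and epidermis had 3 higher and 2 lower of 11 in DH4, 1 and 2 in DH3, and 0 and 2 in DH2. Of 9 regulators of intestine and lysosome 0 were called in DH4, 1 fell in DH3 and 3 fell in DH2. After rescaling the intestine had 0 called in DH4, 2 higher and 1 lower in DH3 and 1 higher in DH2, with medians of 0.33, 0.34 and 0.34 log2, and of the regulators 0 were called in DH4, 1 was higher in DH3 and 2 were lower in DH2. Rescaling gave 5, 3 and 5 muscle genes higher in DH4, DH3 and DH2, took 1 or 2 genes off each lower count of pharynx and epidermis, and moved the epidermis median in DH4 from -0.33 to 0.026 log2 and the pharynx median in DH2 from -0.055 to 0.15 log2. The part of these lists in the members' linear changes was not tested.

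**Figure D4:**
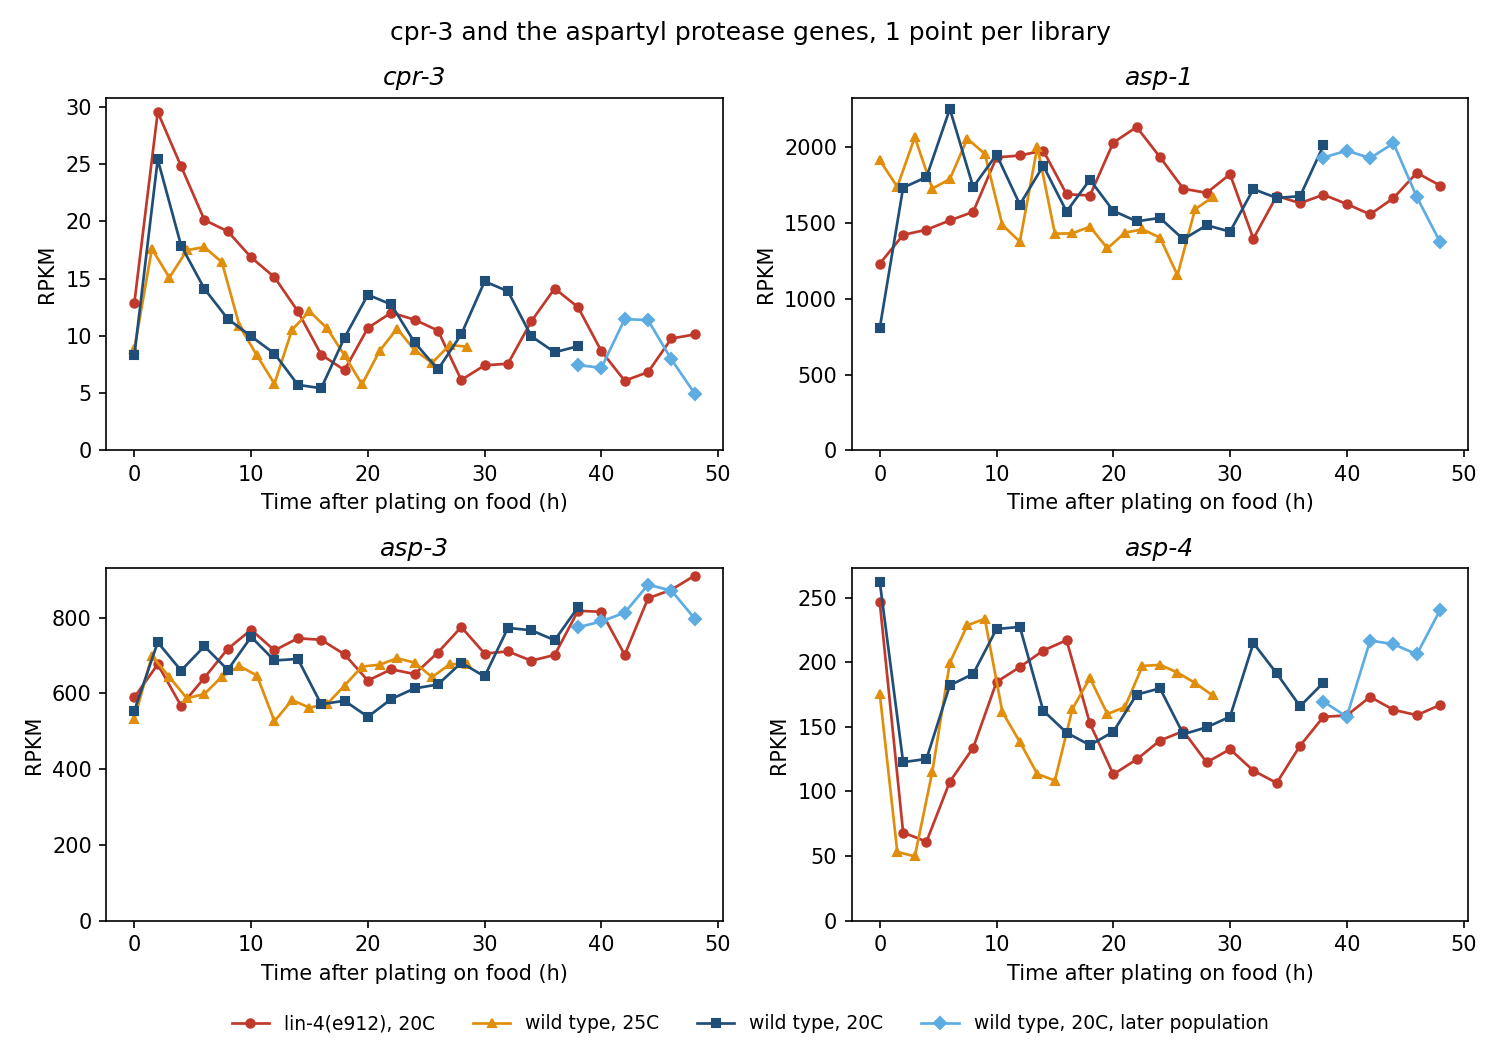
RPKM (linear scale from 0) of cpr-3, asp-1, asp-3 and asp-4 against hours after plating on food, 1 point per library, in the 4 populations. cpr-3 is highest at 2 h in lin-4(e912) and in wild type at 20C, asp-4 has its lowest values between 1.5 and 4 h, and asp-3 stays between 526.5 and 911 RPKM throughout.

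The comparison of the lin-4 mutant with wild type used equal labelled times, which are not equal phases. The fitted periods differed, and the first crest of mlt-10 came at 18 h in DH4 and at 14 h in DH2. Its later local maxima lay at 28, 32 and 42 h in DH4 and at 26 and 36 h in DH2. Those at 28 and 32 h in DH4 are parted by 1 library alone, with 205, 138 and 226 RPKM at 28, 30 and 32 h. Whether they are separate crests cannot be told. How much of the difference in crest times was a later first crest and how much longer cycles was not tested. From 6 to 38 h (17 pairs), 1.14% of 12855 genes were called and 0 of 8 members. cpr-5 had a lowest, median and highest value of 425, 706 and 1100 RPKM in DH4, against 341, 663 and 1147 RPKM in DH2, and the mean difference was 0.091 ± 0.148 log2. cpr-6 had 50.9, 313 and 815 RPKM in DH4, against 107, 307 and 823 RPKM in DH2. The ranges of the 2 populations overlapped for each of the 8 genes, and differences lay between -0.27 and 0.18 log2.

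asp-4 had the lowest adjusted p of the 8 in both windows. From 6 to 38 h it had 107, 135 and 217 RPKM (lowest, median, highest) in DH4, against 136, 175 and 227 RPKM in DH2, and it was higher in DH4 at 4 of 17 times. The mean difference was -0.27 ± 0.09 log2 (limma adjusted p = 0.0290, and 0.0062 to 0.056 when 1 pair was left out, over 0.05 without the pair at 6, 8, 32 or 34 h), under the size limit. From 38 to 48 h, where 3.84% of 13077 genes and again 0 members were called, asp-4 had 158, 161 and 173 RPKM in DH4, against 158, 210 and 240 RPKM in DH5, and was higher in DH4 at 1 of 6 times (-0.28 ± 0.08 log2, adjusted p = 0.0457). In that window the adjusted p reached 0.114 when 1 pair was left out and passed only without the pair at 40 h.

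In the later window the other 7 genes differed by -0.099 to 0.26 log2, with limma adjusted p-values from 0.530 to 0.957. The mutant's cpr-6 had a lowest, median and highest value of 228, 407 and 588 RPKM, against 124, 281 and 828.7 RPKM in DH5, so its values fell inside those of wild type. Of the protease, cystatin and lysosome lists only ppt-1, a thioesterase gene, was called in that window (1.74 log2, higher in lin-4), and 0 genes of these lists from 6 to 38 h. The range of the cycle was compared over genes cycling in 1 or both populations, which takes in cpr-4 and cpr-6 alone of the 8. Of 2052 genes tested 1.07% were called, and 0 of the 2 members. The difference in range was -0.56 ± 0.23 log2 for cpr-4 (normal approximation, adjusted p = 0.320) and 0.49 ± 0.45 for cpr-6 (adjusted p = 0.795). cpr-4 entered only through its call in DH2, so for it the entry rule favours a smaller range in lin-4. cpr-6 was called in both populations.

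Temperature was compared after the times at 25C had been multiplied by 1.3, the factor that best matched all genes, which leaves 16 libraries of DH3 beside 17 of DH2. The wild-type libraries at 20C are the same as in the lin-4 comparison. Aligned times are not equal phases throughout, since the fitted periods were 7.75 h in DH3 and 11.25 h in DH2. The last crest of mlt-10 lay at 25.5 h in DH3 and at 36 h in DH2, so the factor placed it earlier at 25C. Of 12868 genes 1.69% were called, and 0 of 8 members. Of the called genes 69.7% were higher at 25C, and 58.7% after rescaling. cpr-5 came nearest: it had a lowest, median and highest value of 92.3, 353 and 782 RPKM in 17 libraries of DH3, against 341, 663 and 1147 RPKM in DH2, and the difference of -0.94 ± 0.11 log2 had a limma adjusted p of 8.63e-08 but a size under 1. After rescaling by median ratios it was -1.04 ± 0.11 log2 and was called. Its neighbour on chromosome V, cpr-8, was called lower at 25C as well (-1.18 ± 0.08 log2), the one call among 10 other cysteine cathepsins. The lysosomal lipase gene lipl-1 was called higher (1.04 log2), a call lost after rescaling.

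cpr-6 was at -0.39 ± 0.15 log2 (limma adjusted p = 0.0306) and cpr-4 at -0.40 ± 0.18 log2 (adjusted p = 0.0712), and the other 5 genes lay between -0.094 and -0.0038 log2. The fitted range of cpr-5 was 0.74 ± 0.19 log2 larger at 25C than at 20C, which just missed the threshold (normal approximation, adjusted p = 0.0503). The test called 0.05% of 2000 genes and took in 4 of the 8 members. It takes in only genes called as cycling in either series. cpr-5 and cpr-1 entered through their calls at 25C alone, and cpr-6 through its call in DH2 alone. For these genes the entry rule itself favours a larger range in the series that was called. The difference for cpr-5 passed with a pseudocount of 0.1, with either other filter and with rescaling. It also passed when any of 14 of the 34 libraries was left out. Over all fits without 1 library it lay between 0.58 and 0.82 log2. With a period 1 h longer or a linear course of time it did not pass (adjusted p of 0.9999 and 0.9994). cpr-1 had a difference of 0.72 ± 0.29 log2 (adjusted p = 0.731), cpr-4 of 0.25 ± 0.31 and cpr-6 of 0.014 ± 0.746 (adjusted p = 0.999 for each).

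Among themselves the 8 genes fell into courses that the Pearson r over the 65 libraries describes, after centring on each population. cpr-1 and cpr-4 were closest (0.79), cpr-1 and cpr-5 followed (0.65), and cpr-5 and asp-3 had 0.56. cpr-6 had -0.14 with cpr-4 and 0.11 with cpr-1. These libraries are successive times of shared populations, and include the 3 arrested ones.

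The genes outside the set whose courses were most like a member's included other proteases. cpl-1 was the closest of all to cpr-6 (r = 0.96), before Y71G12B.25 (0.95) and the fatty acid elongase gene elo-4 (0.95). cpr-9 was the closest to cpr-1 (0.89) and also to cpr-4 (0.84), and asp-5 was the closest to asp-1 (0.84). cpr-1 was next most like Y105C5B.15 (0.88) and the C-type lectin gene clec-10 (0.84), and cpr-4 C09F12.2 (0.79) and Y41G9A.5 (0.79).

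For cpr-5 the closest were the C-type lectin gene clec-170 (0.91), F13D12.6 (0.90) and cln-3.1 (0.89), a relative of the human lysosomal gene CLN3. For cpr-3 they were T19D12.5 (0.88), Y71H2AL.1 (0.87) and the glutathione S-transferase gene gst-20 (0.86). asp-3 was most like duo-1 (0.76), msh-6 (0.75) and skpt-1 (0.74), asp-4 most like H41C03.1 (0.78), T24H7.2 (0.74) and K02C4.5 (0.73), and asp-1 after asp-5 most like Y16B4A.2 (0.73) and F40F4.6 (0.72).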

How the data were processed

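The deposited table holds RPKM values (reads per kilobase, scaled by library depth) that the authors computed for 21777 entries in 71 libraries. The submitters' processing notes name BWA 0.5.9 as a tool. Build, annotation, counting rule and strand handling: not given in the sources used here. Entries without a gene name (2654, holding 1.58 to 3.03% of summed RPKM) were left out, 3 repeated identifiers with identical values were kept once, and empty cells were set to 0. No member has an empty cell. Relative depth comes from ratios of low values, where 1 read is a fixed step, and its absolute scale from gene lengths of the WBcel235 annotation, so it is an estimate.

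Tests ran in limma 3.58.1 (R 4.3.3), on values transformed as log2(RPKM + 1), over genes whose mean reached 1 RPKM. This scale understates folds of low genes. The feeding fit had population as a block, since fed and arrested larvae came from the same population. The lin-4 fits had labelled time as a block: deviations of paired libraries correlated with a median of 0.44 over 17 pairs. In the 6 pairs of the later window that median was -0.26. Cycling was fitted with a cosine and a sine beside a time spline (3 degrees of freedom), the period being scanned between 4 and 16 h by 0.25 h, and linear change with time beside the same cosine and sine. The 25C fit had a spline of aligned time (4 degrees of freedom) and a cosine and sine at the DH2 period, common to both series. SEs of ranges and peak times are delta-method values. The SE of a peak relative to mlt-10 combines the SEs of both peaks as if independent, although both come from the same libraries. Differences of ranges were tested by a normal approximation at an adjusted p under 0.05, with adjustment over genes called as cycling in either series. The functions were tested on simulated data. Tables and plots were made in Python 3.11.15 (pandas 2.3.3, NumPy 2.4.6, Matplotlib 3.10.9). No source says that time points came from separate cultures, so p-values measure the spread between these libraries.

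The members, the gene lists, the tests and the rule for named genes (all 8 members, up to 3 called genes of each list, direction and comparison by size of change, the 3 most similar genes per member, and mlt-10 as a time mark) were chosen with earlier results of these data known. nhr-23, act-5, ges-1, elt-2, ifb-2 and vha-6 are named as marks, lin-14 and lin-28 as a check of the mutant, and Y65B4A.2 and the value of cpl-1 in DH3 were added after values were seen. Alternatives tried were the pseudocount, the filter on low values, median-of-ratios rescaling, the period, the time window, linear time, other fed times, the alignment factor, no block and leaving out libraries.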

Additional observations from a re-analysis of the deposited data

Results flagged for a closer look

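2 of the 8 genes moved in opposite directions in different populations when fed larvae at 6 h (4.5 h at 25C) were set over arrested larvae. Each ratio is 1 library over 1 library, and the differences between populations were not tested. asp-1 was 1.232 times its arrested level in DH4 and 2.791 times in DH2, but 0.9023 times in DH3, where the arrested larvae had 1915 RPKM. cpr-6 was 0.4242 times its arrested level in DH4 and 0.8768 times in DH3, but 1.075 times in DH2. The populations differ in genotype or temperature and in culture, and these cannot be told apart.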

How the results depend on the processing

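Of 118 values of called members under settings that kept all libraries, 97 kept direction and call, 20 lost the call and 1 changed sign. Of 230 with a library or population left out, 227 kept both and 3 lost the call. The cause of the changes below was not tested, except that stricter or absent filters change the number of genes tested. The fewest estimated reads behind a value of the 8 genes were about 98 (cpr-3 in DH2), so that depth limits them less than the 1 library per time.

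Feeding gave 5 called members with the earliest fed time, against 3. Without the replicate block (population as the pair) it gave 2325 genes and the same count of members. The lin-4 comparisons without the replicate block gave 105 genes from 6 to 38 h and 295 from 38 to 48 h, and 0 members in both. Labelled times paired the libraries in 14 of 17 pairs in the first and in 1 of 6 in the second, by a correlation of deviations over 0.1.

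Cycling in DH2 gave 925 genes with all time points, and 1 member with all time points or a linear course. In DH3 it gave 2 genes and 0 members with a period 1 h shorter, 403 genes and 1 member with 1 h more, 10 genes and 0 members with all time points and 874 genes with a linear course. In DH4 it gave 1036 genes with all time points and 2 members with a period 1 h shorter. Leaving out 1 library gave 809 to 1872 genes in DH3, lowest without 13.5 h, and 1 to 2 members in DH4.

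The linear change gave 2068 genes in DH2, 2240 in DH3 and 1960 in DH4 with a minimum of 5 RPKM, and 5010 in DH4 with all time points. Rescaling gave 2 members in DH2, with asp-1 at 0.0063 and asp-4 at 0.081, and 1 member in DH4, with asp-1 at 0.27 and asp-4 at 0.028. All time points gave 0.030 for cpr-1, 1.26 for cpr-6, -0.35 for cpr-3, 0.091 for asp-1 and 0.016 for asp-4 in DH2, and 0.13 for asp-1 and 0.33 for asp-4 in DH4. Leaving out 1 library gave 1 to 2 members in DH2, cpr-6 from -0.13 to 1.11 in DH3 and asp-3 from -0.0065 to 0.099 in DH4.

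From 6 to 38 h lin-4 against wild type gave 252 genes with a pseudocount of 0.1. Rescaling gave -0.018 for cpr-5, -0.046 for asp-1 and -0.026 for asp-3, and leaving out 1 pair gave cpr-1 from -0.19 to 0.0023. From 38 to 48 h the counts were 894 genes with a pseudocount of 0.1 and 214 with a minimum of 5 RPKM. Rescaling shifted the median over all genes by -0.13 and gave -0.11 for cpr-1, -0.10 for cpr-4, -0.025 for cpr-3 and -0.13 for asp-3. Leaving out 1 pair gave 179 to 462 genes, cpr-1 from -0.14 to 0.22, cpr-4 from -0.22 to 0.33, cpr-5 from -0.051 to 0.35, cpr-6 from -0.13 to 0.60, cpr-3 from -0.059 to 0.28 and asp-3 from -0.029 to 0.052. It was lower by over 1.5 times without the pair at 42, 44, 46 or 48 h.

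At 25C against 20C a pseudocount of 0.1 gave 398 genes, rescaling 1 member, and a factor higher by 0.1 gave 0.10 for cpr-1 and 0.023 for cpr-3. The lin-4 range difference gave 37 genes without a filter, 7 with rescaling, 8 and 9 with a period 1 h shorter and longer, 0 with all time points or a linear course, and 5 to 54 with 1 library left out. The 25C range difference gave 1 member with each of a pseudocount of 0.1 (4 genes), a minimum of 5 RPKM (2), no filter (9) and rescaling (5), and 0 genes with either other period, all time points or a linear course. Leaving out 1 library gave 1 to 15 genes and 0 to 1 members. cpr-6 was there at -0.036 with rescaling, -0.14 with a shorter period, -0.43 over all times and -0.59 to 0.59 with 1 library left out, and cpr-4 at -0.14 with a period 1 h shorter.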
